A study of Mus musculus with 124 samples.

Results

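The livers described here came from mice kept awake for 6 h or for 3 h and from undisturbed mice of the same hours, and the question was which transcripts built up, levelled off or faded as wake went on. They were chosen by their labels alone and make up 14 of the 62 liver samples and 14 of the 124 samples of the series. The T30 SD group (n = 3) underwent gentle handling that prevented sleep over the first 6 h of the light phase, up to zeitgeber time 6 (ZT6). The T27 SD group (n = 3) underwent it for 3 h, to ZT3. The ZT6 NSD controls (n = 5) and the ZT3 NSD controls (n = 3) were left undisturbed, and their labels (T6 and T3) place them before the deprivation. Of the ZT6 controls, J76N1 and J76N2 share the code J76 with livers labelled T198 SD, so their day is less certain. These 2 carry batch 2 in the labels while all other libraries here carry batch 1. All mice were 11 to 12 weeks old, lived under 12 h light and 12 h dark and could eat freely; the labels give no strain, transgene or drug for any group. A group is 1 time point of different animals, so a change from 3 h to 6 h is a difference between mice and not a course within a mouse.

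The liver carries its own circadian clock, in which ARNTL with CLOCK or NPAS2 drives the Per, Cry and Nr1d repressors and output factors such as DBP. Feeding, glucocorticoids and body temperature also act on hepatic transcripts. Heat shock factors drive cytosolic chaperones when proteins misfold or temperature rises, and the unfolded protein response drives the chaperones of the endoplasmic reticulum. Because the morning hours pass for every mouse, a wake change has to be read beside the change of undisturbed mice over the same hours.

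The values are log2 CPM (read counts scaled to a common library total) for 13338 named genes, so equal steps are equal ratios of the share of reads. Library totals are not known from them. The quantities taken from 1 model were the wake change (T30 minus T27), the control change (ZT6 minus ZT3), the difference of these changes, and the deprivation effects at 6 h (T30 minus ZT6) and at 3 h (T27 minus ZT3). The difference of the changes is also the effect at 6 h minus the effect at 3 h. Each is printed as log2 ± SE, and a gene was called at an adjusted p under 0.05 (limma, Benjamini-Hochberg over all 13338 genes). Replicates are separate animals by their codes (T30S1, T30S3 and T30S4; T27S2, T27S3 and T27S5; T6N2, T6N3 and T6N4 beside the batch 2 pair; T3N2, T3N3 and T3N4), and per-library values follow that order, with the batch 2 pair first among the ZT6 controls. The 10 hepatocyte markers summed to between 108000 and 127000 CPM in every library, of which 1, Tat, was called in the wake change. No marker of another cell type was called there. Of the control livers, the ZT6 library T6N3 stood apart: in 13 of the 19 core clock genes it was the ZT6 library nearest the ZT3 mean. T3N2, J76N2 and T6N4 carry other levels of an unlabelled factor that the values show and the model includes, while all deprived livers share 1 level.

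Clock genes led the change from 3 h to 6 h of wake, and clock genes also changed in undisturbed mice. From 3 h to 6 h of wake 127 genes rose (0.952% of all tested) and 151 fell (1.13%). Over the same hours 95 genes rose in controls (0.712%) and 109 fell (0.817%). Both changes were called for 60 genes, all in the same direction, which is 21.6% of the wake calls and 29.4% of the control calls. Over all 13338 genes, most of them not called, the changes had a Pearson correlation of 0.18 and the same sign in 51.7%, a description across genes. Among the 278 wake calls 79.1% had the same sign in controls. Among the 204 control calls 87.3% had the same sign with wake. Of the 19 core clock genes, 6 rose and 6 fell with wake, and 7 rose and 3 fell in controls. None was called in the difference of the changes. The median wake change of the list was 0.46, beside -0.001 over all genes, and its median control change was 0.80, beside -0.006 over all genes. Of 19 clock output genes, 5 rose and 7 fell with wake, and 6 rose and 7 fell in controls. None of these was called in the difference, although without T30S4 1 was called there as lower. Without T30S1 4 rose and 3 fell with wake. Without single libraries the wake calls numbered 117 (without T30S1), 133 (T27S2) and 165 (T27S5), and the control calls 82 (T3N4), 86 (T3N3), 101 (T6N2) and 118 (T6N4). The core clock list had 6 higher and 4 to 6 lower genes with wake in every such fit.

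Ciart, a repressor of the ARNTL complex, stood at 2.97, 3.57 and 2.54 log2 CPM in the T30 livers, against -1.06, -2.23 and -2.06 in the T27 livers. In controls it stood at 2.97, 1.71, 3.94, 1.43 and 3.65 at ZT6, against -1.43, 0.30 and -0.47 at ZT3. Neither pair of groups overlapped. The wake change was 4.81 ± 0.56 (adjusted p = 1.08e-07) and the control change 3.38 ± 0.55 (adjusted p = 0.000115), and their difference of 1.43 ± 0.79 was not called (adjusted p = 0.573; 95% interval -0.15 to 3.02). Dbp, the output factor that binds D-boxes, rose by 4.17 ± 0.46 with wake and by 3.61 ± 0.45 in controls. Per3, a repressor of the clock, rose by 2.69 ± 0.29 with wake and by 3.10 ± 0.28 in controls. Bhlhe41, a repressor that binds E-boxes, rose by 2.86 ± 0.57 with wake and by 3.37 ± 0.56 in controls. The T30 livers were thus high for the daytime arm of the clock as the ZT6 livers were.

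The activators moved the other way. Npas2, the partner of ARNTL, was at -2.21, -1.64 and -0.63 log2 CPM in the T30 livers, against 2.49, 2.16 and 2.14 in the T27 livers, and at -0.93, -1.29, -1.04, 0.15 and -1.86 in the ZT6 controls, against 2.80, 2.38 and 2.85 in the ZT3 controls. Its wake change was -3.76 ± 0.43 (adjusted p = 9.03e-08) and its control change -3.89 ± 0.42 (adjusted p = 3.41e-08), again without overlap of the groups in either pair. Arntl itself fell by 2.98 ± 0.42 log2 with wake (adjusted p = 8.07e-06) and by 2.64 ± 0.41 in controls (adjusted p = 7.23e-05). Cry1, a repressor that peaks late in the cycle, fell by 1.20 ± 0.25 with wake and by 1.37 ± 0.24 in controls. For the difference of the changes the interval ran from -1.09 to 1.35 for Npas2 and from -1.52 to 0.86 for Arntl, so unequal change was not excluded for either gene.

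Per1 and Rgs16 had a called control change and no called wake change, and neither was called in the difference of the changes. Per1, the period gene that also answers to glucocorticoids, was at 4.47, 3.95 and 4.71 log2 CPM in T30 livers, against 4.39, 3.91 and 3.40 in T27 livers, and at 4.20, 2.74, 5.16, 3.12 and 4.09 in ZT6 controls, against 1.96, 3.06 and 0.96 in ZT3 controls. The T27 livers thus lay above every ZT3 control, and the T30 livers lay within the range of the ZT6 controls. Its control change was called (2.05 ± 0.52, adjusted p = 0.0267, and up to 0.426 without J76N1, T6N2, T6N4, T3N2 or T3N4), while its wake change was 0.48 ± 0.53 and the effect at 3 h was 1.93 ± 0.54 (adjusted p = 0.0677). Rgs16, a regulator of G protein signalling, rose in controls by 5.08 ± 0.76 (adjusted p = 2.94e-05), with a wake change of 0.73 ± 0.78. The difference of -4.35 ± 1.09 missed the threshold (adjusted p = 0.111). T27 livers held 3.84, 3.49 and 3.51 log2 CPM of Rgs16, against 1.40, 0.19 and 0.48 in ZT3 controls, and T30 livers 3.76, 3.12 and 6.17, against 4.96, 5.0, 6.04, 4.88 and 6.18 in ZT6 controls.

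**Figure D1:**
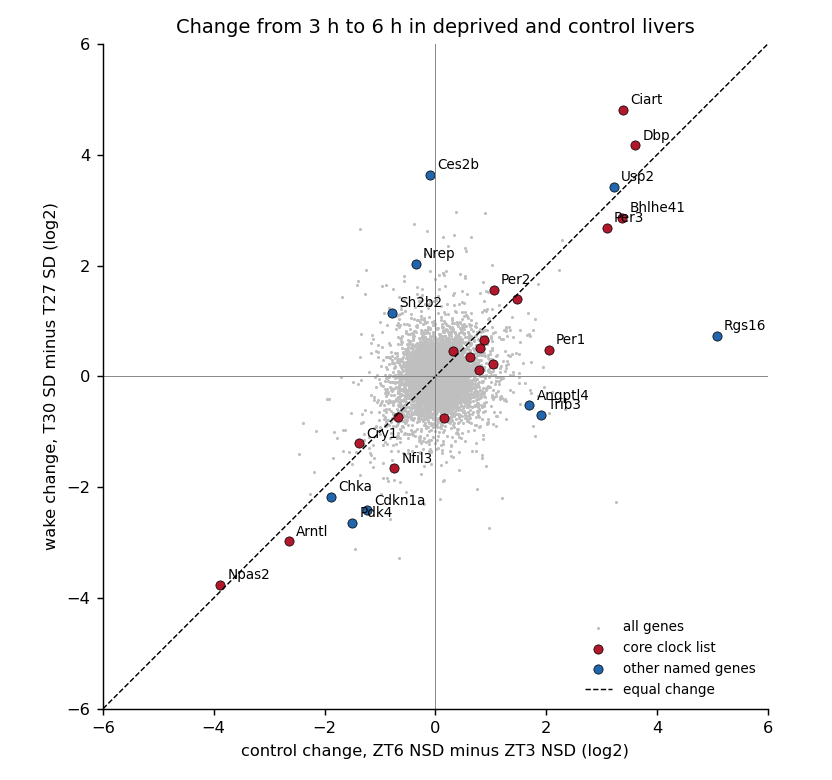
Change of each of 13338 liver genes from 3 h to 6 h, with the wake change (T30 SD minus T27 SD, log2) on the vertical axis and the control change (ZT6 NSD minus ZT3 NSD, log2) on the horizontal axis. Red points are the 19 core clock genes, blue points other named genes, and the dashed line marks equal change. Npas2, Arntl and Per3 lie near that line and Ciart above it (4.81 against 3.38), while Ces2b (3.64 against -0.10) and Rgs16 (0.73 against 5.08) lie far from it.

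The promoters of Ciart and Per3 are printed because these genes rose in both pairs of groups, and they carry different clock motifs. The windows run from 250 bases before to 50 bases after the RefSeq gene start (build GRCm38.p6), and capitals mark E-boxes (CACGTG) in Ciart and D-boxes (TTATGTAA) in Per3, both strands searched.
Ciart (chr3:95882179-95882478, minus strand): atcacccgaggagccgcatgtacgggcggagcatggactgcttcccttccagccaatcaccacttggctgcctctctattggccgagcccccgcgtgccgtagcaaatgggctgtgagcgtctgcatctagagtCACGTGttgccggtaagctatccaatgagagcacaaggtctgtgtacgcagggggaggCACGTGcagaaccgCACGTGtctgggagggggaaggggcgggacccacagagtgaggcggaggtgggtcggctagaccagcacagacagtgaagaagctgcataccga
Per3 (chr4:151044616-151044915, minus strand): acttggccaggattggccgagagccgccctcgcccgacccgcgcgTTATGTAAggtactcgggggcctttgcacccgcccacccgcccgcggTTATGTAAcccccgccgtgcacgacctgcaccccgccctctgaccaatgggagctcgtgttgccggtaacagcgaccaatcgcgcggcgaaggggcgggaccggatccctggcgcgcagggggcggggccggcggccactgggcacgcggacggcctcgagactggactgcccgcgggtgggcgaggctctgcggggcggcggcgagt
Ciart held 3 E-boxes and Per3 held 2 D-boxes. An E-box was found in 7.15% of all 32851 promoters and in 8.09% of the genes these belong to. A D-box was found in 0.938% of the promoters and 1.11% of the genes. Of the 16 core clock genes with a promoter in the table, 5 held an E-box (Per1, Cry1, Tef, Bhlhe41 and Ciart) and 1 a D-box. These are matches of letters and not measured sites.

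A second group of genes changed with wake and not detectably in controls. Of the 278 wake calls, 218 were not called in controls, although 73.4% of these had a control change of the same sign. Ces2b, a carboxylesterase of lipid and drug hydrolysis, was at 4.18, 3.66 and 2.78 log2 CPM in T30 livers, against 0.35, -0.01 and -0.65 in T27 livers, with 0.82, 1.81, 0.94, -0.89 and -0.91 in ZT6 controls, against 0.87, -0.53 and 0.13 in ZT3 controls. Only the T30 livers were high, 12.5-fold above the T27 livers. Its wake change was 3.64 ± 0.71 (adjusted p = 0.00121) and its control change -0.10 ± 0.69, but the difference of 3.74 ± 0.99 was not called (adjusted p = 0.137). Nrep, a small regeneration-related protein first known from neurons, stood at 6.32, 5.60 and 5.48 log2 CPM in T30 livers, against 3.25, 4.13 and 3.93 in T27 livers. In controls Nrep stood at 4.57, 4.10, 3.36, 3.66 and 3.56 at ZT6, against 3.59, 4.42 and 4.33 at ZT3. It rose by 2.04 ± 0.41 with wake (adjusted p = 0.00194), and the difference of 2.39 ± 0.57 had an adjusted p of 0.0915.

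Genes of glycogen and fuel choice were among the wake calls. Ppp1r3c, which targets a phosphatase to glycogen, fell by 2.13 ± 0.33 with wake (adjusted p = 5.49e-05), and the T30 livers (4.15, 4.55 and 5.81 log2 CPM) lay below the T27 livers (6.86, 6.55 and 7.49). Its control change of -0.98 ± 0.33 had the same sign and was not called (adjusted p = 0.148), and the ZT6 controls lay below the ZT3 controls without overlap. It was also lower at 6 h in T30 livers than in ZT6 controls, by -1.49 ± 0.32 (adjusted p = 0.00118). Pfkfb3, a kinase that sets the pace of glycolysis, rose by 2.32 ± 0.54 (adjusted p = 0.0096, and 0.109 at most with 1 library left out; the call was lost without T30S1, T27S2 or T27S5). Its control change was 0.54 ± 0.53 (adjusted p = 0.806). Pdk4, which holds back glucose oxidation, fell by 2.64 ± 0.53 with wake (adjusted p = 0.00172), with a control change of -1.51 ± 0.51 that was not called. Of the 19 glycogen and glycolysis genes measured, 2 rose and 2 fell with wake, beside 0.952% and 1.13% of all genes. In controls 1 rose and 1 fell, beside 0.712% and 0.817% of all genes. At 6 h 2 were higher and 4 lower, beside 6.34% and 6.48% of all genes. Ppp1r3c belongs to this list and also to the clock output list. Further wake calls were Cdkn1a, an inhibitor of the cell cycle (-2.42 ± 0.55, lost without T27S3 at an adjusted p of 0.0826), and Btg1, an antiproliferative factor (-1.02 ± 0.20, adjusted p = 0.00106). Their control changes of -1.23 ± 0.54 for Cdkn1a and -0.42 ± 0.19 for Btg1 had the same sign and were not called, and neither gene was called in the difference.

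The difference of the changes was called for 6 genes, 3 in each direction (0.0225% of all tested each), with adjusted p between 0.0426 and 0.0473. At an unadjusted p under 0.05 there were 1337 genes, where 667 would be found if no gene differed. With the label batch as the only covariate the count was 19. Leaving out single libraries gave between 0 and 11 genes, and 0 without T30S1, T27S2, J76N2, T6N4, T3N3 or T3N4. In 5 of the 6 the effect at 6 h was called and larger in size than the effect at 3 h, and the other gene was called in opposite directions. None of the 5 was called at 3 h: in Sh2b2, Foxa3, Trib3 and Hic2 the effect at 3 h had the opposite sign, and in Ctps2 it was near 0 (-0.04 ± 0.14). No gene was called at both times with a called increase in size, and none was called as fading.

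Sh2b2, an adaptor of insulin and cytokine receptors (chromosome 5, 136218147 to 136246556, minus strand), was at 1.97, 1.77 and 1.94 log2 CPM in T30 livers, against 0.42, 0.61 and 1.21 in T27 livers. Control values were 0.80, 0.64, 0.41, 0.73 and 0.66 at ZT6, against 1.02, 1.80 and 1.66 at ZT3. The T30 livers lay above the T27 livers and the ZT6 controls below the ZT3 controls, without overlap in either pair. The effect was 1.19 ± 0.28 at 6 h (adjusted p = 0.00271) and -0.74 ± 0.30 at 3 h (adjusted p = 0.29). The difference was 1.93 ± 0.41 (95% interval 1.12 to 2.75), made of a wake change of 1.15 ± 0.29 (adjusted p = 0.02, not called without T30S1, T30S4, T27S2 or T27S3) and a control change of -0.79 ± 0.28 that was not called. Foxa3, a forkhead factor of hepatocytes (chromosome 7, 19013284 to 19023538, minus strand), was likewise higher in T30 livers than in T27 livers and ZT6 controls. It stood at 6.17, 5.67 and 6.13 log2 CPM in T30, against 5.07, 5.04 and 5.30 in T27, and 5.49, 4.63, 4.74, 5.39 and 5.04 at ZT6, against 5.45, 5.95 and 5.86 at ZT3. The T30 livers overlapped with the ZT3 controls only. Its difference was 1.56 ± 0.33, with a wake change of 0.85 ± 0.24 (adjusted p = 0.0377, lost without T30S1, T30S4 or any T27 library), an effect of 0.94 ± 0.22 at 6 h (adjusted p = 0.00363) and of -0.62 ± 0.24 at 3 h (adjusted p = 0.265).

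Zbtb12, a zinc finger protein (chromosome 17, 34879483 to 34896867, plus strand), was the 1 gene called in opposite directions at 6 h and 3 h. It stood at 2.01, 2.49 and 1.73 log2 CPM in T30 livers, against 0.56, 0.45 and 1.09 in T27 livers, with 1.71, 1.15, 1.94, 0.84 and 1.21 in ZT6 controls, against 1.67, 1.69 and 1.55 in ZT3 controls. The T27 livers lay below all ZT3 controls (-0.93 ± 0.24, adjusted p = 0.0357), and the T30 livers overlapped with the ZT6 controls while being higher on average (0.69 ± 0.22, adjusted p = 0.031). Either call was lost in at least 1 fit without a single library, with adjusted p up to 0.18 at 3 h (without T27S2, T27S3 or any ZT3 control) and 0.185 at 6 h (without T30S1, T30S3, T6N3 or T6N4).

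Trib3, a pseudokinase induced by the integrated stress response and by fasting (chromosome 2, 152337422 to 152344032, minus strand), had the largest of the called differences. It was at 1.97, 2.24 and 2.62 log2 CPM in T30 livers, against 3.49, 2.49 and 2.91 in T27 livers, and at 3.99, 4.11, 4.01, 3.57 and 4.73 in ZT6 controls, against 2.75, 2.02 and 1.83 in ZT3 controls. Controls rose over the morning by 1.91 ± 0.34 (adjusted p = 0.000458), while the wake change was -0.69 ± 0.35 (adjusted p = 0.402), for a difference of -2.60 ± 0.49. Every T30 liver lay below every ZT6 control (effect -1.83 ± 0.33, adjusted p = 0.0002). The effect at 3 h was 0.77 ± 0.36 and not called (adjusted p = 0.413). Of the other 17 measured genes of the integrated stress response, none was called in the difference, and 1, Atf5, was called at 6 h (0.54).

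Hic2, a transcriptional repressor (chromosome 16, 17233572 to 17263430, plus strand), was at -0.38, 0.53 and 1.03 log2 CPM in T30 livers, against 1.94, 1.67 and 1.62 in T27 livers, with 0.77, 1.29, 1.51, 2.04 and 1.75 in ZT6 controls, against 1.05, 0.49 and 0.89 in ZT3 controls. The T30 livers lay below the T27 livers and the difference was -2.08 ± 0.43. The wake change of -1.35 ± 0.31 was not called without T30S1 or T27S2. The effect at 6 h of -1.14 ± 0.29 rested on T30S1, without which it was -0.75 (adjusted p = 0.172). At 3 h the effect was 0.94 ± 0.32 and not called (adjusted p = 0.171). Ctps2, a CTP synthase (chromosome X, 162901238 to 163032508, plus strand), was at 2.56, 3.02 and 2.95 log2 CPM in T30 livers, against 3.19, 3.27 and 3.67 in T27 livers, with 3.86, 3.84, 3.69, 3.66 and 3.80 in ZT6 controls, against 3.31, 3.53 and 3.42 in ZT3 controls. Its difference was -0.89 ± 0.19, the T30 livers lay below all others, and the effect at 6 h of -0.94 ± 0.13 was called in every fit with 1 library left out (highest adjusted p 0.000457). The positions are those of GENCODE M21 on GRCm38.

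**Figure D2:**
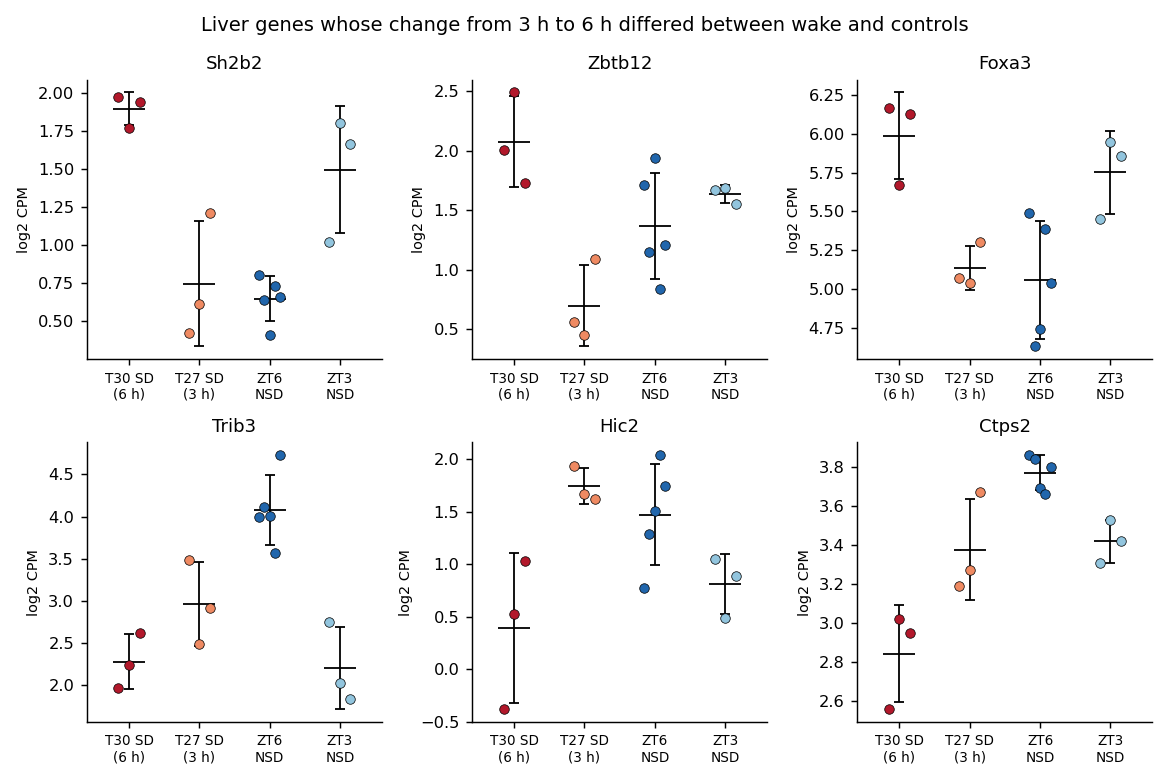
Log2 CPM of the 6 genes called in the difference of the changes, 1 point per liver, in T30 SD (n = 3), T27 SD (n = 3), ZT6 NSD (n = 5) and ZT3 NSD (n = 3); horizontal marks are means and bars 1 SD. Sh2b2, Zbtb12 and Foxa3 are higher in T30 than in T27 livers, and Trib3 is highest in the ZT6 controls. For Sh2b2 and Foxa3 the T27 livers overlap with the ZT6 controls and the ZT3 controls have the higher mean.

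Genes just outside the threshold are given as not called. Dhrs7, a dehydrogenase, had a difference of -0.76 ± 0.17 (adjusted p = 0.0846) and was lower by -0.98 ± 0.12 in T30 livers than in ZT6 controls. Soat2, which esterifies cholesterol, had a difference of -0.82 ± 0.19 (adjusted p = 0.0874) and an effect at 6 h of -0.99 ± 0.13. Acox3, a peroxisomal oxidase, had a difference of 0.70 ± 0.17 (adjusted p = 0.0915) and an effect at 6 h of 0.66 ± 0.11. The 3 effects at 6 h were called, and none of the 3 genes was called at 3 h.

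At 6 h of wake 845 genes were higher than in ZT6 controls (6.34% of all tested) and 864 lower (6.48%). At 3 h 84 were higher than in ZT3 controls (0.63%) and 53 lower (0.397%). The larger count at 6 h does not show that effects grew: 1640 genes were called at 6 h only, while 6 genes were called in the difference of the effects. The number also rests on 1 animal, since without T30S1 there were 567 calls at 6 h, 550 of them among the 1709. At 3 h the count was 30 without T3N4, 39 without T27S2, 56 without T3N3 and 64 without T27S3. At 6 h there were 5 controls and at 3 h 3. With the 3 ZT6 controls of batch 1 the 6 h count was 1425. Summed cholangiocyte markers ran from 37.6 to 40.9 CPM in T30 livers, against 48.8 to 62.5 CPM in ZT6 controls, with a median effect of -0.58 over the 5 measured genes, none of them called. Their part in the effects at 6 h was not tested.

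The effects at 6 h and at 3 h mostly had the same sign. Over all 13338 genes their Pearson correlation was 0.36, a description across genes, which share libraries. Of the 137 genes called at 3 h, 123 (89.8%) had the same sign at 6 h, and their median size was 0.48 at 6 h and 0.84 at 3 h, where the second value chose the genes. Of the 1709 called at 6 h, 1385 (81.0%) had the same sign at 3 h, with a median of 0.58 at 6 h, which chose them, and 0.18 at 3 h. Over all genes 61.8% had the same sign. Both effects were called for 69 genes (4.04% of the calls at 6 h and 50.4% of those at 3 h), of which 47 were higher and 21 lower at both times.

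A level course was defined as both effects called in 1 direction and the 95% interval of their difference within a 1.5-fold change either way. It was met by 25 genes, 20 higher and 5 lower in deprived livers. Of the 25, 3 belong to the heat shock list, Hsp90ab1, the constitutive cytosolic HSP90, its co-chaperone Chordc1, and Cacybp. Creb3l3, a hepatic factor of fasting lipid genes, belongs to the PPAR alpha list. Of the 5 lower genes, Sort1, a sorting receptor for lipoproteins, was at 4.61, 5.07 and 4.21 log2 CPM in T30 livers, against 5.83, 5.49, 5.58, 5.45 and 5.62 at ZT6, and at 4.77, 4.69 and 4.54 in T27 livers, against 5.66, 5.51 and 5.48 at ZT3. Its effect was -0.96 ± 0.17 at 6 h and -0.88 ± 0.19 at 3 h (interval of the difference -0.58 to 0.44). The number of level genes was 6 without T3N4, 8 without T27S2 or T3N3, 10 without T27S3, 12 without T3N2, 14 without T30S4 and 15 without T27S5.

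Cytosolic heat shock genes gave the most calls of the 21 lists at 3 h and at 6 h. Of 25 measured, 18 were higher and none lower at 6 h, beside 6.34% higher over all genes. At 3 h 10 were higher and none lower, beside 0.63% higher over all genes. The median effect was 0.69 at 6 h and 0.58 at 3 h, beside 0.002 at 6 h and -0.002 at 3 h over all genes. None was called in the wake change (median 0.02) or in the difference. The interval of the difference included 0 for 23 of the 25 and stayed within the 1.5-fold bounds for 8, so for the other 17 a change of that size was not excluded. The mean level of the list was 6.01, 5.60 and 5.85 log2 CPM in T30 livers and 5.76, 5.75 and 6.00 in T27 livers, against 4.97 to 5.26 at ZT6 and 4.99 to 5.23 at ZT3. Deprived and control livers did not overlap, and the highest ZT6 value was that of T6N3. At 6 h 18 genes were also called without T6N3, and 12 without T30S1. At 3 h the count was 5 without T27S2, T27S5, T3N2 or T3N3 and 6 without T27S3.

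Hsph1, an HSP110 exchange factor, was at 7.09, 6.56 and 6.61 log2 CPM in T30 livers, against 4.34, 4.41, 4.19, 5.81 and 4.24 in ZT6 controls, and at 6.34, 6.81 and 6.97 in T27 livers, against 4.46, 5.15 and 5.35 in ZT3 controls. All deprived livers lay above all controls. The effect was 2.18 ± 0.29 at 6 h (adjusted p = 2.11e-06) and 1.72 ± 0.32 at 3 h (adjusted p = 0.00237), and the difference of 0.46 ± 0.43 had an interval of -0.41 to 1.33. Hspa8, the constitutive HSP70, gave 1.24 ± 0.23 at 6 h (adjusted p = 0.000218) and 1.35 ± 0.25 at 3 h (adjusted p = 0.00222). Hsp90aa1, the inducible cytosolic HSP90, gave 1.45 ± 0.27 at 6 h and 1.16 ± 0.29 at 3 h. The call at 3 h was lost in 5 of the fits with 1 library left out (adjusted p up to 0.187, without T27S2, T27S3, T27S5, T3N2 or T3N3). Hspb1, a small heat shock protein, was at 4.44, 3.42 and 4.19 log2 CPM in T30 livers, against 2.10, 2.21, 2.12, 3.06 and 1.76 at ZT6, and at 3.55, 3.08 and 3.54 in T27 livers, against 1.90, 2.47 and 2.41 at ZT3. It was called at 6 h (1.81 ± 0.34) and not at 3 h (1.12 ± 0.37, adjusted p = 0.151), although neither pair overlapped. Hspa1b, an inducible HSP70 with a near-identical copy in Hspa1a that reads may not tell apart, had an effect of 1.62 ± 0.56 at 6 h and 2.32 ± 0.61 at 3 h, both with adjusted p just under 0.05 (0.0459 and 0.0406).

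**Figure D3:**
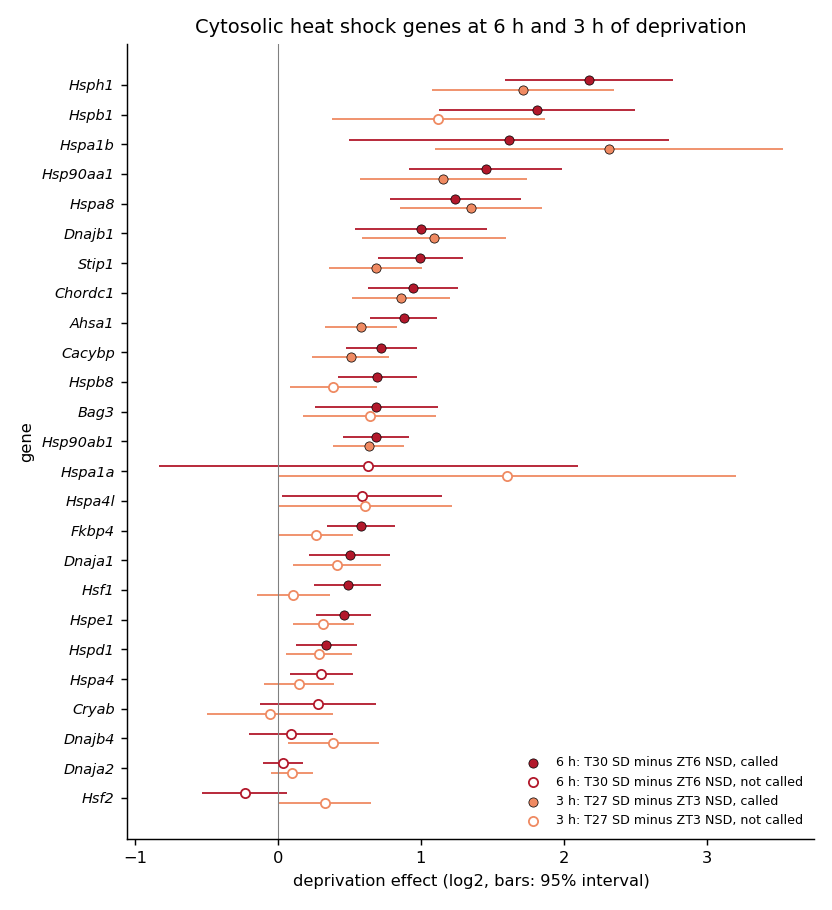
Deprivation effect (log2, horizontal axis) on each of the 25 measured cytosolic heat shock genes at 6 h (T30 SD minus ZT6 NSD, red, upper) and at 3 h (T27 SD minus ZT3 NSD, orange, lower); bars are 95% intervals and filled points were called. The paired intervals overlap along most of the list, with 18 filled points at 6 h and 10 at 3 h.

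Promoters of 3 of these genes are printed because these genes were higher in deprived livers at 6 h and hold several heat shock elements, searched as GAANNTTC or TTCNNGAA on both strands and shown in capitals. In Hsph1 the capitals also mark 1 E-box (CACGTG).
Hsph1 (chr5:149636287-149636586, minus strand): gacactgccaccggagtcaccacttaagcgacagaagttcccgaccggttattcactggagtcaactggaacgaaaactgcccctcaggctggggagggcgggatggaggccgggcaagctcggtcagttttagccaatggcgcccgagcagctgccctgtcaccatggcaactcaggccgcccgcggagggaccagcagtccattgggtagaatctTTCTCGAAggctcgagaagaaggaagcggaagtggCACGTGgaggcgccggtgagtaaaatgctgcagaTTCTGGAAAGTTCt
Hspb1 (chr5:135887669-135887968, plus strand): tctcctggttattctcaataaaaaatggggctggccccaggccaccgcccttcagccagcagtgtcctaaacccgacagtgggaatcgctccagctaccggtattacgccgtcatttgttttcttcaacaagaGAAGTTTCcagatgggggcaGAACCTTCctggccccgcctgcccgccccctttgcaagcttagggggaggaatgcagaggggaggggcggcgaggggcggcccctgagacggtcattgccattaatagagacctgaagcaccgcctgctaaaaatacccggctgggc
Chordc1 (chr9:18292017-18292316, plus strand): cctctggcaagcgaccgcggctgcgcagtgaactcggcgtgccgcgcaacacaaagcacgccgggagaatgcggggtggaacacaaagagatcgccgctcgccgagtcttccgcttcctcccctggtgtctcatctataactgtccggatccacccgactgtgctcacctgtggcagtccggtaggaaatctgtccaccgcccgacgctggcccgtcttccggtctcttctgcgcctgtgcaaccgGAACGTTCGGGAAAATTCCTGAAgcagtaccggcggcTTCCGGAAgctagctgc
Hsph1 held 3 heat shock elements in this window, Hspb1 2 and Chordc1 5, some of them overlapping. Of the 20 heat shock genes with a promoter in the table, 12 held at least 1 such element, beside 15.1% of all promoters and 17% of the genes these belong to. The sequences are from RefSeq (GRCm38.p6), and a match is not a measured site.

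Chaperones of the endoplasmic reticulum were also higher in deprived livers. Of 21 measured genes 14 were higher and none lower at 6 h (median 0.54), beside 6.34% higher over all genes (median 0.002). At 3 h 2 were higher and none lower (median 0.53), beside 0.63% higher over all genes (median -0.002). The 6 h count rested on single animals: it was 2 without T30S1, 6 without T6N2, 9 without T30S3 and 14 without T6N3. Syvn1, a ubiquitin ligase of protein quality control, was called at both times, at 1.35 for 6 h and 1.32 for 3 h. Its level was 7.97, 7.31 and 7.02 log2 CPM in T30 livers, against 5.84, 5.84, 5.92, 6.79 and 6.01 at ZT6, and 7.42, 7.76 and 7.65 in T27 livers, against 6.09, 6.38 and 6.4 at ZT3. Hspa5, the main chaperone of that compartment, was at 10.40, 10.05 and 9.80 in T30 livers, against 9.02, 9.22, 9.02, 9.93 and 9.20 at ZT6. There T6N3 overlapped with the T30 livers (effect 0.91 ± 0.26, adjusted p = 0.0166, and 0.144 without T30S1).

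Xbp1 was called at 6 h and not at 3 h, Herpud1 at 3 h and not at 6 h, and neither was called in the difference. Xbp1, the transcription factor spliced in the unfolded protein response, rose with wake by 0.87 ± 0.24 (adjusted p = 0.0345). The call was lost without T30S1, T30S3, T27S2 or T27S5 (adjusted p up to 0.323). Its values were 9.0, 8.57 and 8.54 log2 CPM in T30 livers, against 7.38, 8.17 and 7.97 in T27 livers, and 7.84, 7.85, 7.63, 8.28 and 7.86 at ZT6, against 7.71, 8.22 and 8.16 at ZT3, so the T30 livers alone were high. Herpud1, a partner of Syvn1 in degradation, was higher by 1.23 ± 0.23 at 3 h (adjusted p = 0.00237), and its effect was 0.13 ± 0.21 at 6 h. Controls rose by 0.84 ± 0.22 (adjusted p = 0.0336, not called without T6N2, T6N4 or any ZT3 control) and the difference of -1.10 ± 0.31 was not called (adjusted p = 0.176).

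Cold-inducible Cirbp, which is raised by cooling and lowered by warmth, was lower at both times. It was at 3.33, 3.46 and 3.33 log2 CPM in T30 livers, against 4.39, 4.75, 5.02, 5.24 and 4.88 at ZT6, and at 3.56, 3.58 and 3.45 in T27 livers, against 4.57, 4.57 and 4.84 at ZT3. The groups did not overlap at either time. The effect was -1.50 ± 0.21 at 6 h (adjusted p = 3.75e-06) and -1.12 ± 0.23 at 3 h (adjusted p = 0.00414, and 0.0745 without T3N4), and the interval of the difference ran from -0.998 to 0.242. Rbm3, the other cold-inducible RNA-binding protein, gave -0.41 ± 0.18 at 6 h and -0.46 ± 0.19 at 3 h, neither of which was called. Srebf1, the activator of lipogenic genes, was also lower at both times, at -1.25 ± 0.30 for 6 h and -1.46 ± 0.32 for 3 h. These calls were lost without T30S1 (adjusted p = 0.0722) and without T27S2, T27S3 or T3N4 (adjusted p up to 0.114). It was the 1 called gene of the 21 lipogenic genes at either time.

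Genes of ribosome biogenesis were called at 6 h and not at 3 h. Of 25 measured, 9 were higher and none lower at 6 h, beside 6.34% higher over all genes. None was called at 3 h, where 0.63% of all genes were higher, and none was called in the difference. The median effect was 0.31 at 6 h and 0.05 at 3 h, beside 0.002 and -0.002 over all genes. Of the 25, 23 had a positive wake change, with a median of 0.16, and 1 of them, Rrn3, was called. A positive wake change was found in 6649 of all 13338 genes. Rrn3, the initiation factor of RNA polymerase I, was at 5.80, 5.25 and 4.76 log2 CPM in T30 livers, against 3.58, 4.74 and 4.31 in T27 livers, and at 4.44, 4.02, 4.05, 3.56 and 3.84 at ZT6, against 4.13, 4.25 and 4.09 at ZT3. All T30 livers lay above the others (effect at 6 h 1.30 ± 0.27, adjusted p = 0.000779). Its wake change of 1.05 ± 0.28 lost its call without T30S1, T30S3, T27S2 or T27S5. The list mean was 5.05, 4.68 and 4.78 in T30 livers, against 4.34, 4.91 and 4.63 in T27 livers, which overlapped, and the count at 6 h was 2 without T30S1, 4 without T30S4 and 6 without T6N2 or T6N4.

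**Figure D4:**
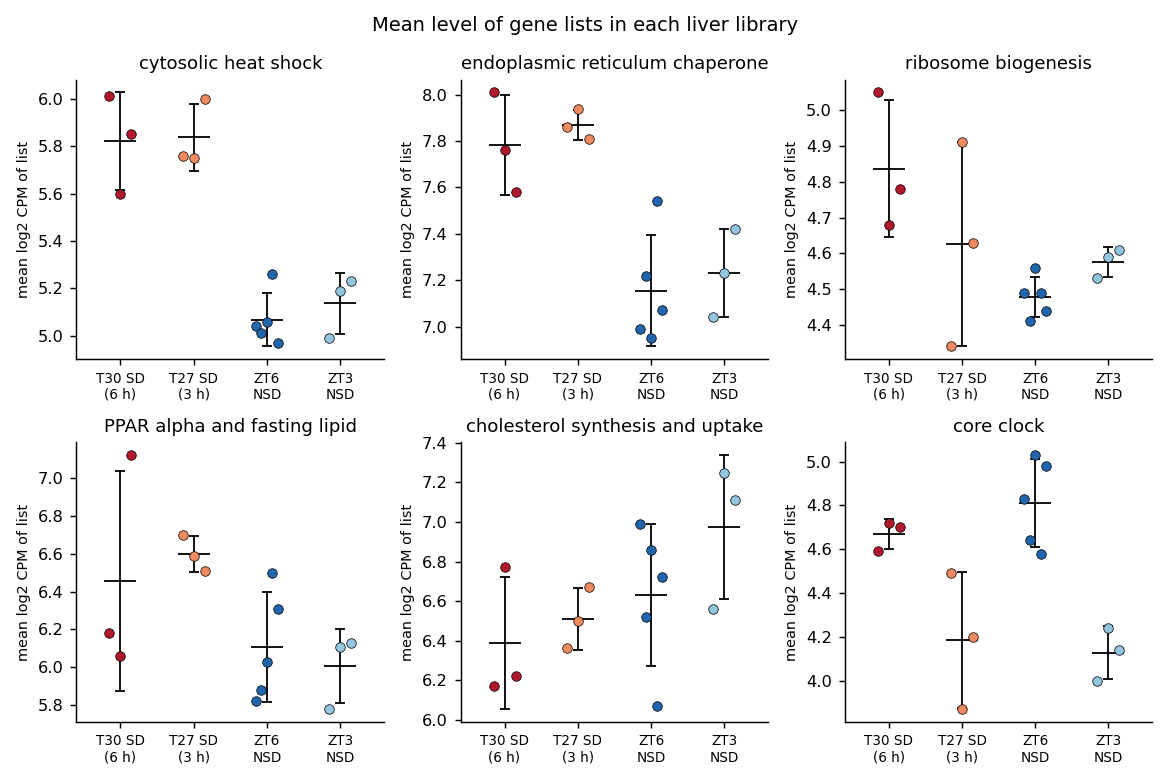
Mean log2 CPM of 6 gene lists in each liver, 1 point per library, for T30 SD (n = 3), T27 SD (n = 3), ZT6 NSD (n = 5) and ZT3 NSD (n = 3), with group means and 1 SD. Heat shock and endoplasmic reticulum lists are high in both deprived groups, the ribosome biogenesis list has its highest mean in T30, and the core clock list lies higher at the later hour in deprived and control livers alike.

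Fkbp5, a co-chaperone that glucocorticoids induce, was at 6.01, 5.88 and 6.08 log2 CPM in T30 livers, against 5.11, 5.53 and 4.16 in T27 livers, and at 4.76, 4.76, 4.63, 4.17 and 5.21 at ZT6, against 4.44, 4.84 and 3.65 at ZT3. T30 livers lay above all others. The wake change of 1.06 ± 0.29 was called (adjusted p = 0.0329) and lost without any 1 T30 library, T27S2 or T27S5. The effect was 1.38 ± 0.27 at 6 h (adjusted p = 0.00053) and 0.61 ± 0.29 at 3 h (adjusted p = 0.436), and the difference of 0.76 ± 0.40 was not called. Tat, a glucocorticoid target of amino acid breakdown, went the other way with wake (-1.17 ± 0.29, adjusted p = 0.0183, not called without T30S1, T30S3, T27S2 or T27S3). Tsc22d3, another target, had a wake change of -0.89 ± 0.30 (adjusted p = 0.125). Of the 19 glucocorticoid-responsive genes 1 rose and 3 fell with wake, beside 0.952% and 1.13% of all genes. Cyp3a25, a drug-metabolising cytochrome, was lower at 6 h by -1.38 ± 0.20 (adjusted p = 4.61e-06), with -0.43 ± 0.21 at 3 h that was not called. Of 27 genes of xenobiotic metabolism 4 were lower and none higher at 6 h, where 6.48% of all genes were lower and 6.34% higher. None was called at 3 h, where 0.397% of all genes were lower and 0.63% higher.

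Some fasting-linked genes were called at 3 h and not at 6 h, and none of them was called in the difference. Angptl4, a lipase inhibitor induced by PPAR alpha and glucocorticoids, was at 6.57, 5.49 and 7.20 log2 CPM in T30 livers, against 4.91, 5.97, 5.15, 5.85 and 6.57 at ZT6, and at 7.44, 7.04 and 6.33 in T27 livers, against 4.32, 4.17 and 3.94 at ZT3. The T27 livers lay far above the ZT3 controls (2.81 ± 0.47, adjusted p = 0.00157) and the T30 livers overlapped with the ZT6 controls (0.60 ± 0.44, adjusted p = 0.401). The control change was 1.70 ± 0.45 (adjusted p = 0.0384, lost without J76N2, T6N3, T6N4 or any ZT3 control, with adjusted p up to 0.247) and the wake change -0.52 ± 0.46. The difference of -2.21 ± 0.65 was not called (adjusted p = 0.178). Pck1, the gatekeeper of gluconeogenesis, gave 0.14 ± 0.45 at 6 h and 1.84 ± 0.49 at 3 h (adjusted p = 0.0465). That call was lost in 9 of 14 fits with 1 library left out. Ppp1r3g, a glycogen-targeting subunit that follows feeding, gave -1.77 ± 0.89 at 6 h and 3.76 ± 0.96 at 3 h (adjusted p = 0.0359). Its difference of -5.53 ± 1.31 had an adjusted p of 0.091, and the 3 h call was lost without any 1 of the 6 libraries concerned (adjusted p up to 0.226).

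Genes lower at 3 h included S1pr1 and Irf5. S1pr1, a sphingolipid receptor of endothelial cells, gave 0.16 ± 0.11 at 6 h and -0.57 ± 0.12 at 3 h (adjusted p = 0.0087), and controls fell by 0.66 ± 0.12 over the same hours (adjusted p = 0.000334). Irf5, an interferon regulatory factor of macrophages, gave 0.26 ± 0.20 at 6 h and -0.97 ± 0.22 at 3 h (adjusted p = 0.0135). The call of S1pr1 at 3 h was lost without T27S2, T27S3 or T3N4, and that of Irf5 without T27S2, T3N3 or T3N4. Irf5 fell in controls by 0.79 ± 0.21 (adjusted p = 0.037, lost in 6 of 14 such fits). Summed endothelial markers ranged from 246 to 389 CPM in T30 livers and 264 to 408 in T27 livers, against 253 to 440 at ZT6 and 255 to 393 at ZT3, and none of the 9 was called. Summed Kupffer cell and macrophage markers ranged from 130 to 437 CPM in T30 livers and 154 to 370 in T27 livers, against 218 to 546 at ZT6 and 200 to 300 at ZT3, again with none of 9 called. In bulk liver, fewer cells of a type and less RNA per cell cannot be told apart. The part of these cell types in the results was not tested.

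The lists below gave few calls. Over all genes 6.34% were higher and 6.48% lower at 6 h, and 0.63% were higher and 0.397% lower at 3 h. Of 25 cholesterol genes none was called at 3 h, where all 25 effects were negative (median -0.46), and 1 was lower at 6 h (Sc5d, median of the list -0.12). The values at 6 h rested on single libraries: 4 were lower without T30S3 (median -0.44), 3 without T6N3 (median -0.41) and none without T30S1 (median -0.02), so no course over the 2 times can be read from them. At 3 h the median was -0.31 without T3N3 and 1 gene was lower without T3N2. The mean level of that list overlapped between deprived and control livers at both times. Of 26 PPAR alpha genes 3 were higher at 6 h (Acot1, Creb3l3 and Plin5, median 0.27) and 2 at 3 h (Angptl4 and Creb3l3, median 0.46). At 6 h 7 genes of that list were higher without T30S3 (median 0.40), and none without T30S4 (median -0.04), with 2 without J76N1 or T6N2. At 3 h 1 was called without T27S2, T27S3 or any 1 ZT3 control. Of 20 bile acid genes 1 was higher at 6 h, Cyp7b1, an enzyme of the alternative pathway (1.19), and 4 were lower, Abcc2, Abcg5, Abcg8 and Akr1d1. None of that list was called at 3 h. Of 21 immediate early genes none was called with wake, at 6 h or at 3 h.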

How the data were processed

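Liver RNA was sequenced as stranded mRNA libraries, single-end, per the labels' protocols. The submitters' processing notes name fastp, STAR 2.7.0e, edgeR and build mm10 (GRCm38). The deposited values are log2 CPM, used as deposited with no pseudocount and no filter; CPM sums ran from 919700 to 1070000 per library, so depth is unknown and no counting error can be given. The table holds 13373 entries, of which 35 without a gene name (0.0337% of the signal) were left out; 0 columns lacked a sample. The values lack 2 dimensions, which matches a 3-level factor (50, 8 and 4 libraries) that the labels do not name. That it was removed before deposit is inferred from the values. T3N2 is at the level of 4 libraries, and J76N2 and T6N4 at that of 8.

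All 62 liver libraries entered 1 limma 3.58.1 fit (R 4.3.3; lmFit, eBayes with trend) of 17 groups with label batch and that factor as covariates (42 residual degrees of freedom). Tests were two-sided, with Benjamini-Hochberg adjusted p under 0.05 over 13338 genes. Intervals are 95%. Named genes were the genes called or nearest the call in the difference of the changes, the largest wake changes without overlap, the largest effects of each time-course class, up to 4 members of each list by the p of the difference, and a fixed set of clock, heat shock and metabolic genes. Other genes named as called in a list or class were chosen after their values were seen. The result of 1 marker list is not reported here. The comparison and the 21 gene lists and 10 marker lists were chosen with earlier results of these data known. Same-numbered animals were not treated as pairs, since the labels do not say that they share anything. Alternatives covered covariates, libraries, centring, a filter, a pseudocount of 1, the variance trend and each library left out; the fit with ZT6 controls of batch 1 only was chosen after seeing the data. Promoters are RefSeq windows (GRCm38.p6); gene positions are GENCODE M21. Figures were drawn with Python 3.11.15 and matplotlib 3.10.9.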

Additional observations from a re-analysis of the deposited data

Results flagged for a closer look

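The difference between the wake change and the control change, tested in the model itself, was past the threshold for 6 genes: Trib3 (-2.60), Hic2 (-2.08), Ctps2 (-0.89), Sh2b2 (1.93), Zbtb12 (1.62) and Foxa3 (1.56), all in log2.

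Within the 5 ZT6 controls, 1 library lay far from the others in 10 of 155 genes checked (6.45%), where chance marks about 1 in 20. The library was T6N3 in 7 of them, all in log2 CPM. Chka, a choline kinase with a daily rhythm, stood at 6.45 there, against 4.68 to 5.16 in the other 4 controls. Chordc1 stood at 5.48, against 4.90 to 4.97. Hsph1 stood at 5.81, against 4.19 to 4.41. Hspa5 stood at 9.93, against 9.02 to 9.22. Hsd3b5, a steroid dehydrogenase, stood at 7.21, against 8.02 to 8.32. Nr1d2, a clock repressor, stood at 6.44, against 7.06 to 7.22. Srsf6, a splicing factor, stood at 6.49, against 6.78 to 6.85. In T6N3 Hsph1, Chordc1 and Hspa5 were thus nearer to the deprived livers than in the other ZT6 controls. The mean of the cytosolic heat shock list was 5.26 in T6N3, against 4.97 to 5.06 in the other ZT6 controls.

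The other libraries were each marked once. Dusp1, an immediate early phosphatase, stood at 3.64 in T6N2, against 2.61 to 2.84. Gadd45b, a stress-induced gene, stood at -1.42 in J76N1, against -0.03 to 0.51. Tchh stood at -3.99 in T6N4, against -1.80 to -0.94.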

How the results depend on the processing

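Counts are of genes past the threshold, against 278 for the wake change, 204 for the control change, 6 for the difference, 137 at 3 h and 1709 at 6 h. Larger or smaller at 6 h means in size, with the difference called; 5 genes were larger, 0 smaller, 1 reversed and 25 level. With label batch as the only covariate the difference was called for 19 genes, with 16 larger at 6 h, 2 smaller at 6 h and 49 level; with no covariates 47 were level. With only the 14 libraries and no covariates the counts were 0 for the difference, 0 larger at 6 h and 0 reversed. With batch 1 libraries alone the counts were 105 for the control change, 72 at 3 h, 0 for the difference, 0 larger at 6 h, 0 reversed and 10 level. Without the lowest 20% of genes the difference was called for 1 gene, with 1 larger at 6 h and 0 reversed, and with log2(CPM + 1) 0 reversed. With ZT6 controls of batch 1 only, chosen after seeing the data, the difference was called for 3 genes, with 2 larger at 6 h. Where the difference had 0 calls, 1611 genes were at an unadjusted p under 0.05 with the 14 libraries.

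Leaving out 1 library gave 117 to 300 genes for the wake change, 82 to 275 for the control change, 0 to 11 for the difference, 30 to 149 at 3 h and 567 to 1787 at 6 h. It gave 0 to 11 larger at 6 h, 0 to 3 smaller at 6 h, 6 to 29 level, 0 to 1 reversed and 643 to 1828 unresolved.

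Same-numbered animals did not deviate together (correlations of -0.189 to 0.082). The fit with the replicate number as a block, in batch 1 libraries, called 8, 95, 0, 45 and 130 genes for the wake change, the control change, the difference, 3 h and 6 h, with 0 larger at 6 h, 0 reversed, 2 level and 165 unresolved. T30 and T27 share only 1 number. Of the named genes, 22 of 43 wake calls, 14 of 27 control calls, 16 of 24 calls at 3 h, 24 of 65 at 6 h and 6 of 6 differences were lost in at least 1 fit without a single library. Where counts moved, the cause was not tested.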
